A study of Glycine max with 18 samples.

Results

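Steady genes were taken as the loci whose mean in each of 6 developmental stages of soybean was at least 30 and whose highest stage mean was at most 1.5 times the lowest. This held for 19 of 51546 loci. The minimum of 30 alone left 1273 loci, so the members made up 1.49% of the loci that had this level at every stage. The stage means of all 18 libraries chose the members, and their evenness is therefore a description and was not tested. The members are candidates for reference genes of seed development in this material.

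Soybean plants of the cultivar Williams 82 were grown in a greenhouse, and polyadenylated RNA was sequenced at 6 stages with 3 biological replicates each. Embryos at the cotyledon stage were dissected from seeds of 2.5 to 3.5 mm, and early maturation embryos from seeds of 6 to 7 mm. Mid maturation embryos came from seeds of 200 to 250 mg, and late maturation samples from fully yellow seeds of 230 to 500 mg, for which the protocol mentions seed coat and embryo. Mature dry seed and whole seedlings at day 8 after sowing completed the series, although the seedling columns are headed with the letters COT. The seedling titles read 8 DAI, which they do not spell out. No stage carried a mutation, transgene or chemical treatment in the labels, and how many embryos or plants made up a sample is not given in the sources used here. Reads per library ranged from 3572134 to 8776240. The tissue labels were not checked against marker genes, because none of the 51546 identifiers could be paired with a name in the gene table used here (Glycine max v4.0).

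A reference gene serves as an internal standard: the transcript of interest is divided by it, so that differences in the amount of RNA put into a reaction cancel out. A useful one keeps its level across the conditions compared and is abundant enough to be measured well. Seed development is a demanding case, since embryos first divide, then fill with storage protein and oil, then dry, and the seedling afterwards turns to growth and photosynthesis. The functions of the 19 members are not known from the files, and no gene is named by function here.

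The values are normalized read counts: CPM, read counts relative to a common library total, scaled by trimmed mean of M-values (TMM) factors, which set the bulk of genes equal between libraries. CPM below stands for values on this TMM scale unless plain CPM, without the factors, is named. They measure a transcript relative to the others of the same library and are not divided by transcript length, so a higher value means more reads and not more molecules. In such whole-tissue samples, fewer cells that express a gene and less RNA per cell cannot be told apart.

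The 19 members lay between 34.8 and 106 CPM, taken as the mean of the 6 stage means, with a median of 42.4 CPM. The other 1254 loci with the same minimum level had a median of 96.3 CPM. The highest-to-lowest ratio of stage means ranged from 1.19 to 1.49 in members, with a median of 1.38, whereas its median among the other loci was 3.75. The coefficient of variation (CV, the SD over the 18 libraries divided by the mean) was 8.80% to 18% in members, against a median of 46.7% in the other loci. Single libraries varied more than stage means. The highest library exceeded the lowest by a factor of 1.31 to 1.81, and 3 members stayed within 1.5 on this stricter count, Glyma.05G006700, Glyma.19G007300 and Glyma.17G219600.

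**Figure D1:**
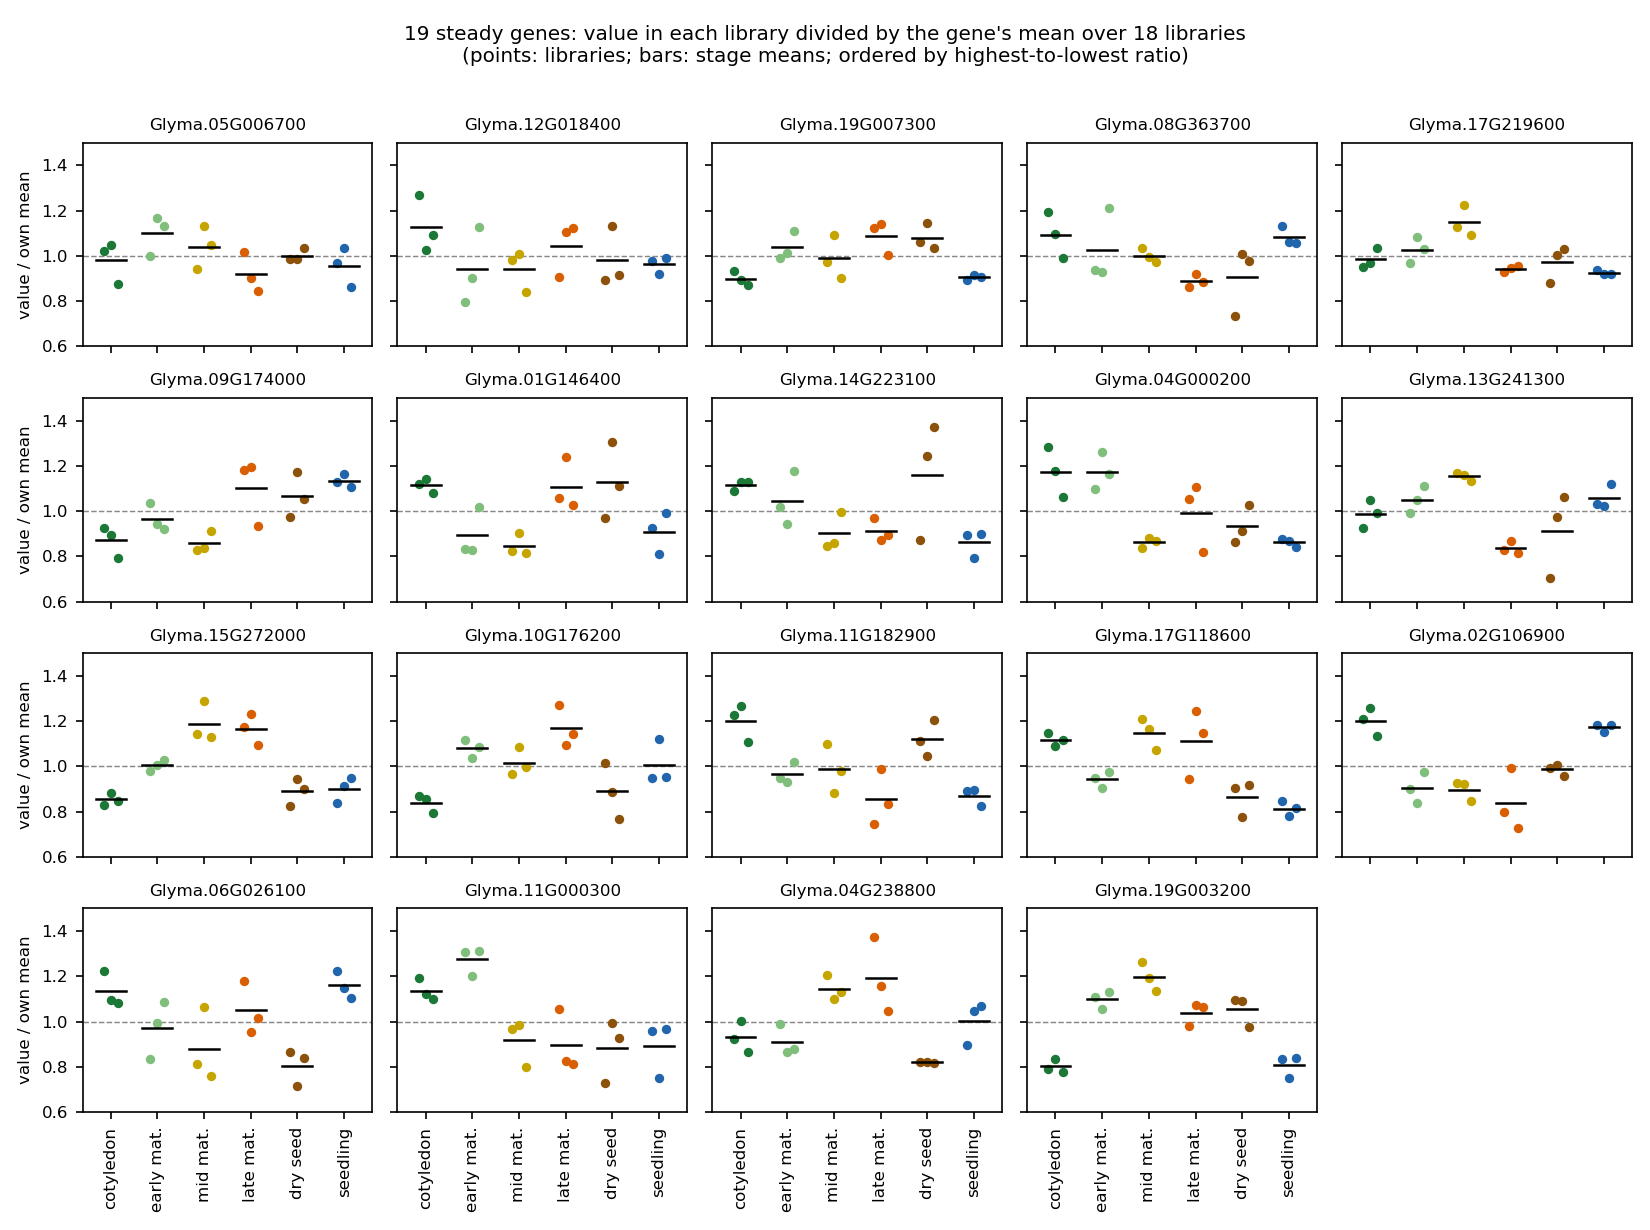
Value of each of the 19 steady genes in the 18 libraries, divided by the gene's own mean (vertical axis, no unit), by stage (horizontal axis); points are libraries and bars are stage means. The panels run from Glyma.05G006700, with a ratio of stage means of 1.19, to Glyma.19G003200, with 1.49.

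Glyma.05G006700 had the lowest ratio of all, 1.19. Its values were 39.4, 40.5 and 33.9 CPM at the cotyledon stage, 38.5, 44.96 and 43.8 CPM in early maturation and 36.4, 43.6 and 40.4 CPM in mid maturation. They were 39.2, 34.8 and 32.5 CPM in late maturation, 37.97, 37.98 and 39.98 CPM in dry seed and 37.4, 39.98 and 33.3 CPM in seedlings. The lowest stage, late maturation (35.5 ± 3.42 CPM, SD, n = 3), overlapped with the highest, early maturation (42.4 ± 3.43 CPM), in single libraries.

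Glyma.12G018400 had a ratio of 1.199 with a wider spread between replicates. It stood at 53.9, 43.5 and 46.3 CPM at the cotyledon stage, 33.8, 38.3 and 47.8 CPM in early maturation and 41.6, 42.7 and 35.6 CPM in mid maturation. Its values were 38.4, 46.96 and 47.7 CPM in late maturation, 37.97, 48.0 and 38.8 CPM in dry seed and 41.4, 39.0 and 42.0 CPM in seedlings. Its replicates in early maturation lay further apart than its 6 stage means did.

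Glyma.19G007300 had a ratio of 1.21 and the lowest library ratio, 1.31. It was at 55.8, 53.4 and 52.0 CPM at the cotyledon stage, 59.3, 60.6 and 66.2 CPM in early maturation and 58.2, 65.3 and 53.8 CPM in mid maturation. It was at 67.0, 68.1 and 60.01 CPM in late maturation, 63.3, 68.3 and 61.7 CPM in dry seed and 53.5, 54.8 and 54.2 CPM in seedlings. The cotyledon and seedling libraries thus lay at the low end, below every late maturation and dry seed library.

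Glyma.08G363700 gave the highest values among the members, 106 CPM on average, and had a ratio of 1.23. Its values were 126, 116 and 104 CPM at the cotyledon stage, 98.9, 98.01 and 128 CPM in early maturation and 109, 105 and 103 CPM in mid maturation. In late maturation they were 91.03, 97.2 and 93.2 CPM, in dry seed 77.5, 107 and 103 CPM and in seedlings 119.7, 112.1 and 111.6 CPM. Dry seed replicate 1 held its lowest value and early maturation replicate 3 its highest.

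Glyma.17G219600 had a ratio of 1.24 and the lowest CV of the 1273 loci, 8.80%. It stood at 65.01, 66.4 and 70.7 CPM at the cotyledon stage, 66.3, 74.3 and 70.4 CPM in early maturation and 77.3, 83.8 and 74.7 CPM in mid maturation. It stood at 63.5, 64.6 and 65.3 CPM in late maturation, 60.2, 68.8 and 70.4 CPM in dry seed and 64.2, 62.8 and 63.03 CPM in seedlings. Every mid maturation library was above every library of the other stages. Its spread within stages, 5.29% of the mean, was no larger than the 5.32% that counting of reads alone gives.

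The other members departed from evenness in different stages. Glyma.02G106900 had its lowest mean in late maturation, 33.2 ± 5.36 CPM, and its highest at the cotyledon stage, 47.5 ± 2.51 CPM (SD, n = 3). Glyma.11G182900 did likewise, with 31.1 ± 4.52 CPM in late maturation and 43.6 ± 2.98 CPM at the cotyledon stage. Glyma.04G000200 was lowest at mid maturation (66.9 ± 1.83 CPM) and highest in early maturation (91.0 ± 6.41 CPM). Glyma.11G000300 was lowest in dry seed (30.7 ± 4.81 CPM) and highest in early maturation (44.4 ± 2.15 CPM).

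Mid maturation held the highest mean of the largest number of members, 5 of 19, among them Glyma.17G219600. It held that of 8.13% of the other loci with the same minimum level. Glyma.15G272000 reached 68.4 ± 5.13 CPM there, against 49.2 ± 1.57 CPM at the cotyledon stage (SD, n = 3). Glyma.13G241300 had its lowest mean in late maturation, 37.2 ± 1.22 CPM, and 51.3 ± 0.851 CPM at mid maturation. Glyma.17G118600 was at 40.9 ± 1.66 CPM in seedlings and at 57.7 ± 3.50 CPM at mid maturation.

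Late maturation held the highest mean of Glyma.10G176200 (43.9 ± 3.43 CPM) and Glyma.04G238800 (60.8 ± 8.47 CPM). Dry seed held that of Glyma.01G146400 (45.1 ± 6.77 CPM) and Glyma.14G223100 (48.6 ± 10.8 CPM). The seedling libraries of Glyma.14G223100, its lowest stage, spanned 33.2 to 37.7 CPM and overlapped with its dry seed libraries, at 36.4 to 57.3 CPM. Seedlings held the highest mean of Glyma.09G174000 (76.1 ± 1.97 CPM) and Glyma.06G026100 (45.01 ± 2.34 CPM).

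The highest stage was thus spread over all 6 stages, with 4 members at the cotyledon stage, 3 at early maturation, 5 at mid maturation, 3 at late maturation, 2 in the dry seed and 2 in the seedling. The lowest stage was late maturation for 5 members, the cotyledon stage for 4, mid maturation for 4, dry seed for 3 and seedling for 3. Early maturation was the lowest stage of 0 members. Among the other 1254 loci the lowest mean lay in seedlings for 515, or 41.1%, and at the cotyledon stage for 17.15%. It lay in early maturation for 15.55%, dry seed for 11.8%, mid maturation for 7.5% and late maturation for 6.94%. Their highest mean lay in dry seed for 27.59%, late maturation for 25.36% and early maturation for 24.4%. It lay at the cotyledon stage for 8.69%, mid maturation for 8.13% and seedlings for 5.82%. No test was run on these counts, since the rule used the stage means.

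Glyma.19G003200 marked the upper edge of the rule, with a ratio of 1.49. It was at 30.8, 32.5 and 30.4 CPM at the cotyledon stage, 43.2, 41.2 and 43.98 CPM in early maturation and 49.3, 46.5 and 44.3 CPM in mid maturation. It was at 38.2, 41.8 and 41.5 CPM in late maturation, 42.6, 42.5 and 38.1 CPM in dry seed and 32.6, 29.3 and 32.7 CPM in seedlings. Its replicates lay close together (5.14% within stages), so its cotyledon and seedling libraries were all below every library of the other 4 stages. Glyma.04G238800 (1.45) and Glyma.11G000300 (1.45) came next below the limit. Just above it lay Glyma.10G019400 (1.51), Glyma.12G146600 (1.53) and Glyma.02G204000 (1.53). At the minimum level, Glyma.11G000300 and Glyma.11G182900 were the closest inside, with lowest stage means of 30.7 and 31.1 CPM. Glyma.12G219800 and Glyma.05G221700 were just outside with lowest means of 29.6 and 29.2 CPM, and had highest stage means of 37.0 and 39.1 CPM.

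The F test of limma across the 6 stages reads the same stage means as the rule, so its outcome in members was bound to the choice and nothing is drawn from it. With an adjusted p under 0.05 as the threshold it called 15 of 19 members, against 99.1% of the 36872 genes tested. The replicates of the highest and the lowest stage did not overlap in 17 of 19 members, and in 99.8% of all loci with 6 stage means of at least 30. The exceptions were Glyma.05G006700 and Glyma.14G223100.

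Counting error set part of the spread. The members were read 64 to 1271 times per library. Counting alone gives a CV of 4.20% to 7.26%, and the CV within stages was 5.14% to 12.6%, with a median of 8.54%. Counting accounted for a median of 55.5% of the variance within stages, and 2 members, Glyma.17G219600 and Glyma.19G003200, varied within stages by no more than counting gives. Among the other 1254 loci the median CV within stages was 10.98% and that of counting 4.50%, at their higher read numbers. These figures cover the sampling of reads only, because copies made by PCR do not count as separate molecules.

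Evenness was found at modest levels. Of the 441 loci with all 6 stage means at least 50, 5 met the ratio limit, or 1.13%, and of the 6268 with a minimum of 10, 89 did, or 1.42%. The minimum of 30 itself favours even genes among those with a mean near it, so the share was also read over all loci in a range of mean level. This share was 0.341% of the 6161 loci with a mean of 5 to 10 CPM and 0.640% of the 10629 at 10 to 30 CPM. It was 0.652% of 3066 at 30 to 50 CPM and 0.316% of 2217 at 50 to 100 CPM. It was 0.125% of 801 at 100 to 200 CPM and 0 of 435 above. The only locus above 200 CPM within 2-fold was Glyma.08G175900, at a mean of 519 CPM and a ratio of 1.92, with 732 ± 21.6 CPM in dry seed and 380 ± 58.9 CPM in early maturation (SD, n = 3).

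**Figure D2:**
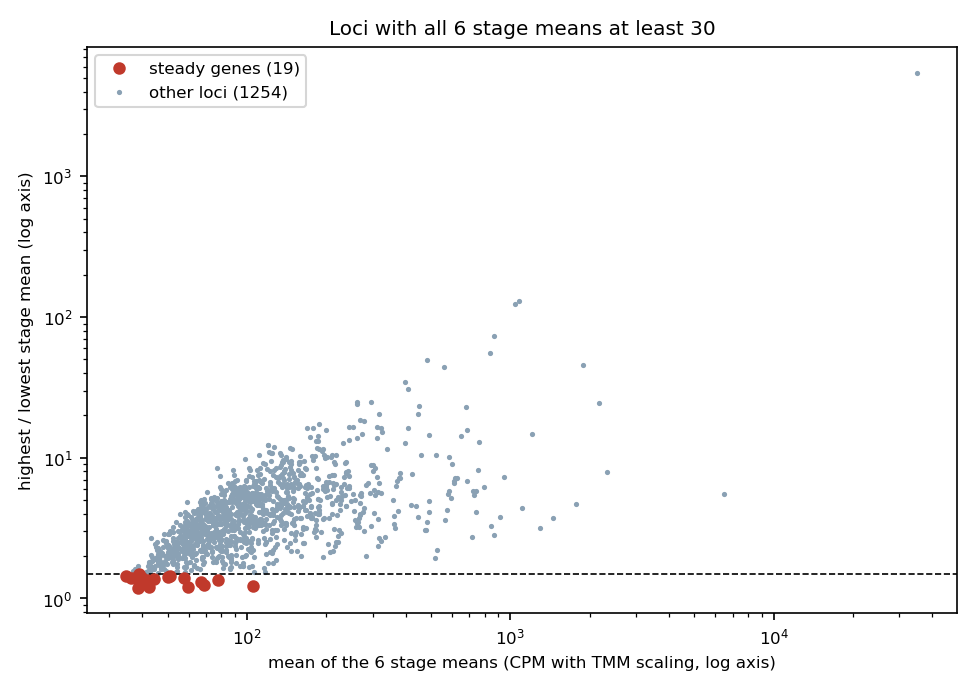
Highest-to-lowest ratio of stage means (vertical, log axis) against the mean of the 6 stage means in CPM (horizontal, log axis) for the 19 steady genes (red) and the other 1254 loci with all stage means at least 30 (grey); the dashed line is the limit of 1.5. Members lie between 34.8 and 106 CPM, and loci of higher levels lie above the line.

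The summed level of the 19 members was nearly level on the TMM scale. It was 997 ± 40.5 CPM at the cotyledon stage, 993 ± 48.4 CPM at early maturation, 977 ± 31.9 CPM at mid maturation and 978 ± 48.1 CPM at late maturation (SD, n = 3 each). Dry seed had 938 ± 59.4 CPM and seedlings 939 ± 7.79 CPM. The highest stage exceeded the lowest by a factor of 1.06. Dry seed replicate 1 stood lowest, with a median log2 deviation of the members of -0.15 and 14 of 19 below their own mean. The other dry seed libraries had 0.01 and -0.015. All 3 seedling libraries were low too, with -0.09, -0.12 and -0.06. In them 14, 11 and 12 members were below their own mean, and 10 members were below it in all 3. Low seedling values were not particular to members. Seedlings were the lowest stage of 41.1% of the other loci that had the minimum level at every stage. How many of those loci lay below their own mean in the seedling libraries is not given here. Without dry seed replicate 1, 19 loci met the rule, of which 18 were members.

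As a share of all reads the same genes were far from even. They held 0.136% ± 0.00267 of the reads at the cotyledon stage, 0.109% ± 0.00800 at early maturation, 0.0624% ± 0.00133 at mid maturation and 0.0866% ± 0.00720 at late maturation (SD, n = 3 each). Dry seed had 0.0827% ± 0.00924 and seedlings 0.127% ± 0.00191. The share at the cotyledon stage was 2.17 times that at mid maturation, and the replicates of these 2 stages did not overlap. The TMM factors offset this difference by construction, because they scale a library to the bulk of its genes and not to its total.

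**Figure D3:**
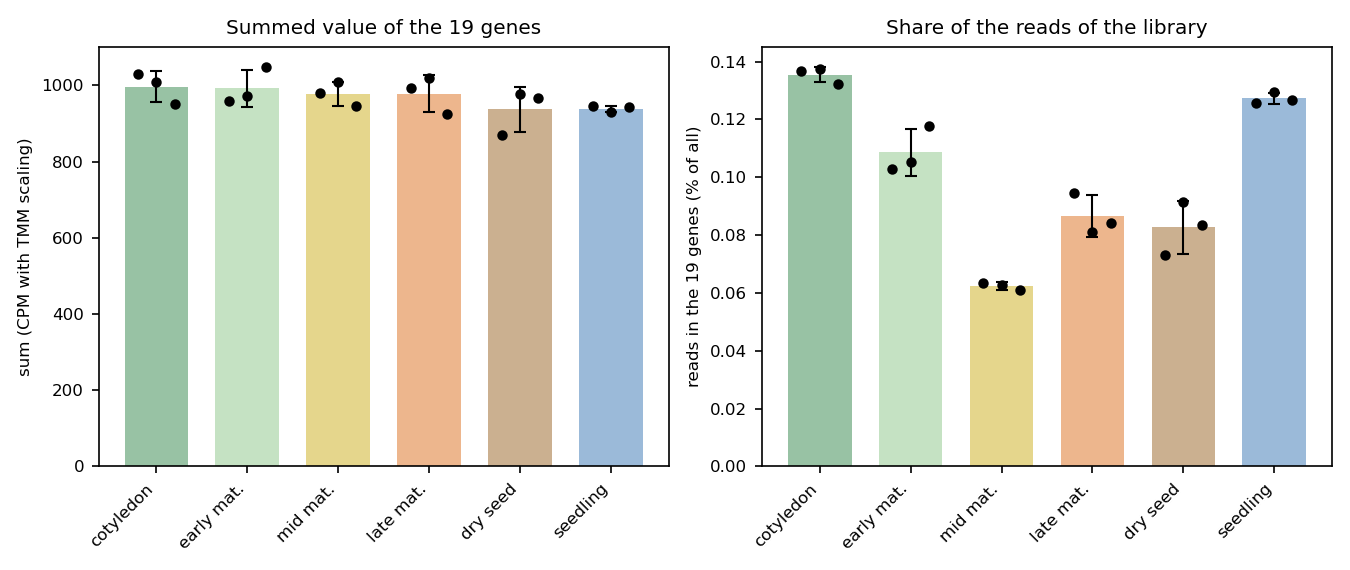
Summed value of the 19 steady genes in CPM with TMM scaling (left) and their share of all reads of the library in percent (right) by stage; bars are means, error bars are SDs and points are the 3 libraries. The sum stays between 938 and 997 CPM, while the share is lowest at mid maturation, 0.0624%.

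Which loci count as steady therefore depended on the scaling. Recomputed from the same reads, 13 loci met the rule under upper-quartile rescaling and 24 under median-of-ratios rescaling, of which 7 and 12 were among the 19. With plain CPM and no TMM factors 6 loci met it, and 0 of them were among the 19. There the 19 had ratios of 1.57 to 2.89. The ratios of the 19 were 1.201 to 1.89 under upper-quartile and 1.21 to 1.72 under median-of-ratios rescaling.

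Glyma.05G006700, Glyma.08G363700, Glyma.12G018400 and Glyma.17G219600 met the rule under all of the deposited, upper-quartile and median-of-ratios scalings, out of 37 loci that met it under at least 1 of these. Their ratios were 1.47, 1.201, 1.42 and 1.46 under upper-quartile and 1.27, 1.496, 1.21 and 1.29 under median-of-ratios rescaling.

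**Figure D4:**
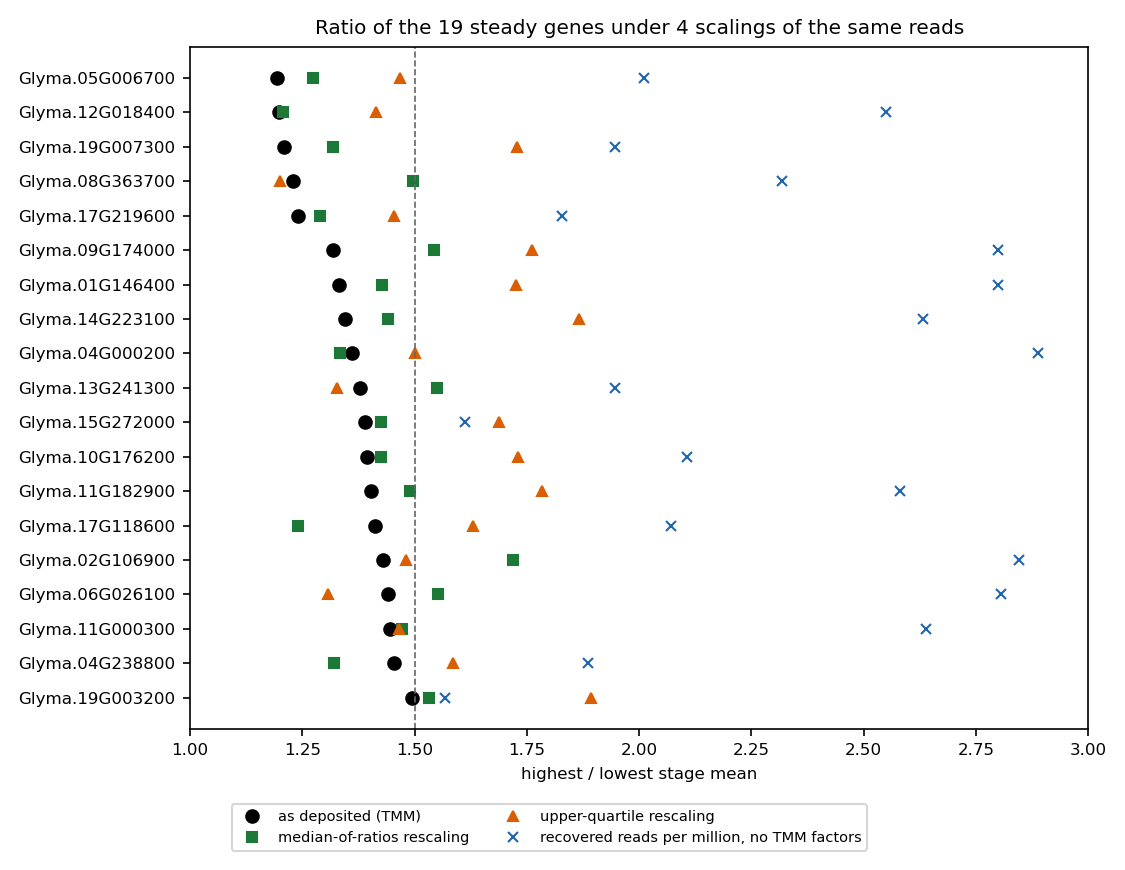
Highest-to-lowest ratio of stage means (horizontal axis, no unit) of the 19 steady genes under 4 scalings of the same reads; the dashed line is the limit of 1.5. Black points (as deposited) are all left of the line by choice, and all crosses (plain CPM without TMM factors) are right of it, from 1.57 to 2.89.

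Ratios between members do not depend on the scaling of a library. For each gene the SD over the 18 libraries of its log2 ratio to another member was averaged over the other members, a measure of the kind used to rank reference genes in quantitative PCR. This pairwise SD was 0.23 to 0.31 among members, with a median of 0.28. The other 1254 loci had a median of 0.71 against the members, and 8 of them were at or below the highest value of a member. The lowest values belonged to Glyma.17G219600 (0.23), Glyma.05G006700 (0.23), Glyma.19G007300 (0.23), Glyma.08G363700 (0.25), Glyma.12G018400 (0.25) and Glyma.13G241300 (0.27).

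Set against all 1273 loci instead, members did not stand out as much. Glyma.19G007300 ranked 7 and Glyma.19G003200 ranked 19, and 12 of 19 members were among the 100 lowest. The pairwise SD to all loci was 0.71 to 0.81 in members, with a median of 0.75, against a median of 0.93 in the other loci and a lowest value of 0.698. The rule chose the members on the same libraries, so these values describe them and support nothing.

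Among the 171 pairs of members the SD of the log2 ratio ranged from 0.14 to 0.43. The tightest pair was Glyma.05G006700 and Glyma.17G219600, with mean log2 ratios of -0.83, -0.73, -0.97, -0.86, -0.78 and -0.79 in stage order from cotyledon to seedling. The loosest was Glyma.06G026100 and Glyma.19G003200, with 0.49, -0.19, -0.47, 0.00353, -0.40 and 0.51. These differed in opposite ways: Glyma.06G026100 was high at the cotyledon stage and in seedlings, where Glyma.19G003200 was low. Their ratio therefore differed between mid maturation and seedling by more than either gene did alone.

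Geometric means of several members were also computed on the TMM scale. Unlike the ratios between members, they depend on the scaling of each library. That of the 3 members with the lowest pairwise SD varied with an SD of 0.09 on the log2 scale over the 18 libraries, that of 5 members with 0.08, that of 10 with 0.08 and that of all 19 with 0.06. The SD of the single best, Glyma.17G219600, was 0.12. Single libraries spanned a factor of 1.24 with 5 members, 1.27 with 10 and 1.19 with all 19, so more members did not always give a smaller spread. The highest stage exceeded the lowest by a factor of 1.06 with 5 members, 1.09 with 10 and 1.07 with all 19. Members were chosen and ranked on these same libraries, so these values are a description.

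Values were also read in libraries that took no part in a choice made on the others. The rule was applied to the 12 libraries of 2 replicate numbers, and the highest-to-lowest ratio was read in the 6 libraries left out, 1 per stage. Without the replicates 1, 23 loci were chosen, of which 9 stayed within 1.5 in the libraries left out (39.1%), with a median ratio of 1.53. Without the replicates 2, 12 of 21 did (57.1%), with a median of 1.45, and without the replicates 3, 13 of 15 (86.7%), with a median of 1.39. Among the loci with the same minimum that were not chosen, 0.312%, 0.156% and 0.830% stayed within 1.5, with medians of 3.93, 4.07 and 3.53. Those loci exceeded 1.5 in the 12 libraries used, so their low shares follow in part from the choice. The ratio over the 6 libraries left out was larger than that of the stage means used in the choice for 20 of 23, 16 of 21 and 7 of 15 loci. One is taken over single libraries and the other over means of 2, so they are not on the same footing. Of the loci chosen, 17, 15 and 15 were members, which all 18 libraries had picked. The rounds reuse these libraries under 1 joint TMM scaling, so they describe the rule and are no test on new material.

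The 3 rounds made 59 choices in all, counting a locus anew in each round. All but 1 of these stayed within 2-fold in the libraries left out. The exception was Glyma.02G044700, which is not a member, at 2.16 without the replicates 2. Among the loci not chosen, 6.47%, 6.47% and 9.96% stayed within 2-fold without the replicates 1, 2 and 3. The 3 rounds had 12 loci in common, and 28 loci were chosen at least once. A locus chosen in all 3 rounds is a member by construction, because its stage means average those of the 3 rounds. The 12 were Glyma.01G146400, Glyma.04G000200, Glyma.05G006700, Glyma.08G363700, Glyma.09G174000, Glyma.10G176200, Glyma.12G018400, Glyma.13G241300, Glyma.15G272000, Glyma.17G118600, Glyma.17G219600 and Glyma.19G007300. Glyma.11G000300, the member with the lowest level and the highest CV, was chosen in 0 of the 3.

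**Figure D5:**
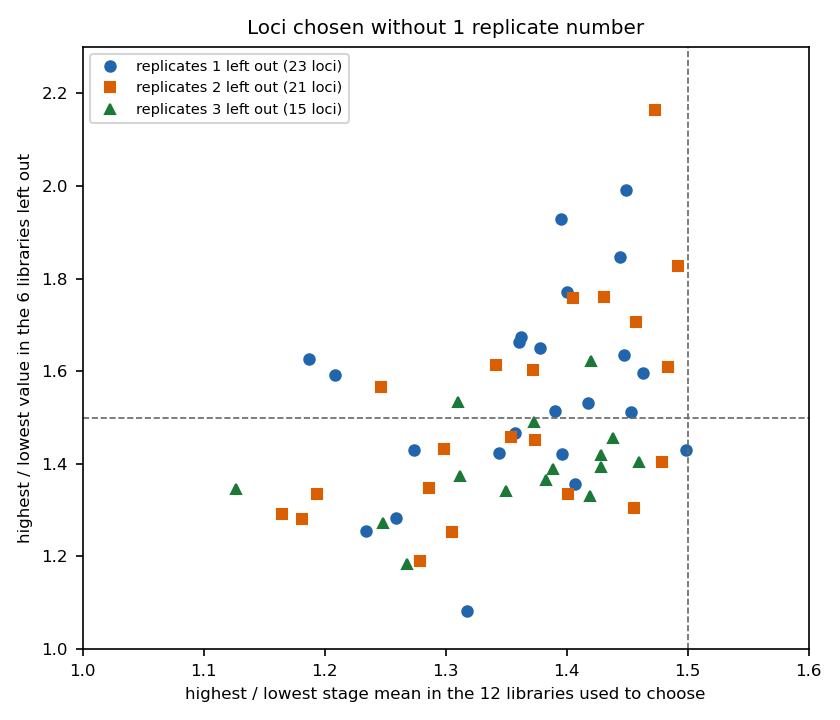
Loci chosen by the rule without 1 replicate number: ratio of stage means in the 12 libraries used to choose them (horizontal) and ratio of single values in the 6 libraries left out (vertical), with dashed lines at 1.5. Of the loci chosen, 9 of 23, 12 of 21 and 13 of 15 lie under the horizontal line when the replicates 1, 2 and 3 are left out.

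Steps between neighbouring stages were mixed in sign. Their small size was set by the rule, which caps the ratio between stage means, and is no finding. The median log2 difference of the members was 0.00189 for early maturation minus cotyledon, -0.04 for mid minus early maturation, -0.03 for late minus mid maturation, -0.01 for dry seed minus late maturation and -0.03 for seedling minus dry seed. Single members differed by -0.54 (Glyma.04G238800, dry seed minus late maturation) to 0.53 (Glyma.06G026100, seedling minus dry seed). All 1273 loci with the same minimum had medians of 0.16, -0.11, 0.26, -0.01 and -0.72 for the same steps in order. The last is larger than the rule lets a member reach. In seedling minus dry seed 9 members were higher and 10 lower. The scaling moved the medians of the members. That of seedling minus dry seed was -0.50 under upper-quartile rescaling, 0.08 under median-of-ratios rescaling and 0.59 in plain CPM. That of mid minus early maturation was 0.07, -0.01 and -0.81 under the same scalings.

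By the numbers in their identifiers the members lie on 15 of the 20 chromosomes, with at most 2 on 1 chromosome. Soybean carries many near-identical gene pairs, and how reads that match both copies were counted is not given in the sources used here. The value of a single member may therefore include reads of a copy.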

How the data were processed

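Each deposited file held 1 signal value per locus, a read count that the authors scaled to CPM with TMM factors. The submitters' processing notes name Bowtie 0.12.7 and edgeR 3.0.8, with no role stated. The counting, the genome build and the annotation are not stated there. Values were whole multiples of 1 read (within 0.05 for 927825 of 927828), so reads were recovered, and recomputed TMM factors matched the deposited scaling to a relative difference of 5.81e-08.

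Members were chosen by plain stage means. The F test was limma 3.58.1 (R 4.3.3) with a trended prior on log2 of the value plus 1. It covered 36872 genes, those that reached 1 in 3 or more libraries, with Benjamini-Hochberg adjustment over all of them. On recovered reads, edgeR 4.0.16 quasi-likelihood called 36481 genes and DESeq2 1.42.0 called 36283. Rescaled values were set to the same geometric mean of library totals. Named genes followed rules on ratio, CV, level, pairwise SD and closeness to the limits, and the remaining members are given so that each is accounted for. Glyma.08G175900, Glyma.02G044700 and Glyma.06G026100 with its partner were singled out after their values were seen. Gene lists by product name could not be applied. Members and lists were chosen with earlier results of these data known. The labels call the replicates biological, with no more said of their origin.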

Additional observations from a re-analysis of the deposited data

How the results depend on the processing

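The number of members, 19 as reported, was 6 with plain CPM and no TMM factors, 89 with a minimum of 10, 5 with a minimum of 50, 5 when the highest stage could exceed the lowest by at most 25%, 132 with a limit of 2 and 3 when every single library had to lie within 1.5. A looser or stricter limit changes the number by construction. It was 13 under upper-quartile and 24 under median-of-ratios rescaling, and 17 to 23 when 1 library was left out. Members called in the F test numbered 13 to 19 under all alternatives, against 15 as reported. They numbered 13 to 16 with 1 library left out, 14 by edgeR and 17 by DESeq2. Most genes tested were called too, 36481 of 36872 by edgeR and 36283 of 36861 by DESeq2. Plain CPM gave 19 members and 37155 of 37329 genes. Without early maturation replicate 3, 16 members and 36412 of 36790 genes were called. Without seedling replicate 1 it was 13 members and 33531 of 33970 genes. With no filter on low values, 16 members and 41847 of 51546 genes were called. Loci within the limit in the libraries left out numbered 23 and 20 at a limit of 2 in place of 1.5, without the replicates 1 and 2.

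Libraries of adjoining stages that share a replicate number showed little common deviation. Over 15 such pairs, the correlation of their deviations from the stage means ran from -0.154 to 0.109 and exceeded 0.1 in 2. No other pairs were compared, so these values cannot show whether libraries of the same number share an origin. With the replicate number as a block, 14 of 19 members were called in the F test, against 36515 of the 36872 genes tested. Of 342 ratios of members with 1 library left out, 332 stayed at or under 1.5 and the highest was 1.57. A ratio moves only where the omission alters the highest or lowest stage mean, so many of these equal the reported ratio by construction. Depth limits the members with fewest reads, down to 64 per library.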
